A study of Mus musculus with 35 samples.

Results

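Proliferating cells copy their genome and divide with a shared set of proteins, and the genes for 42 of them were followed here at their transcription start sites in the developing mouse retina. The list was given by name and not by any measured value. It holds 10 genes of origin licensing and the replication fork (Mcm2 to Mcm7, Cdc6, Cdt1, Gmnn and Pcna), 3 of nucleotide supply (Rrm1, Rrm2 and Tyms), and 7 that act from G1 into S phase (Ccnd1, Ccnd2, Ccne1, Ccne2, Cdk2, E2f1 and E2f2). A further 6 act from S phase to mitosis (Cdk1, Ccna2, Ccnb1, Ccnb2, Cdc25c and Chek1), 8 are mitotic kinases and spindle checkpoint or related factors (Plk1, Aurka, Aurkb, Bub1, Bub1b, Ttk, Cdc20 and Birc5), and 8 belong to chromosomes, kinetochores and spindle motors (Kif11, Kif20a, Cenpa, Cenpe, Cenpf, Ndc80, Top2a and Mki67). All 42 starts were placed on the genome build of the peak lists, among 19961 protein-coding starts in all. All 42 also lay within 1 kb of an H3K4me3 peak in both P0 libraries, as did 13315 other starts, which serve as the comparison (100% marked by that choice) and are called the other marked starts.

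As background, retinal progenitor cells leave the cell cycle during late embryonic and early postnatal life, and the postmitotic retina is dominated by rod photoreceptors. In cycling cells, E2F factors released from Rb family proteins drive the genes of the G1 to S transition. Genes used in G2 and mitosis are controlled through the CHR element and CCAAT boxes, and in quiescent cells the DREAM complex represses both groups. H3K4me3 marks promoters, H3K27Ac marks active promoters and enhancers, and H3K27me3 is the mark of Polycomb repression. Brg1 is an ATPase of the SWI/SNF chromatin remodelers.

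The study asked how these marks change as the retina matures and what the loss of Brg1 does to them. Whole retinae gave 2 wild-type libraries each for H3K27Ac, H3K4me3 and H3K27me3 at P0, P14 and P21. At P12 there were 1 wild-type and 2 Brg1-/- libraries for H3K27Ac, 1 and 1 for H3K4me3, and 2 and 1 for H3K27me3. Brg1-/- retinae, called Brg1-deficient here, came from mice with floxed Brg1 and a Chx10-Cre transgene, which acts in retinal progenitor cells in a mosaic pattern, so that cells with Brg1 remained in an unknown share. Animals with small eyes were chosen by preference for this assay. Anti-FLAG ChIP-Seq of P0 retinae with a FLAG tag knocked into Brg1 gave 1 library. One antibody was used for H3K27me3 at P0, P14 and P21 and another at P12, and no stage was compared with another across the antibodies. The study describes its histone mark libraries as biological replicates. The labels do not say which or how many animals stand behind each library.

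The values are peak lists, and the height of a start is the fold enrichment of the highest peak within 1 kb, or 0 without a peak. Heights were divided by a factor for each library, and such values are called scaled heights. How many reads stand behind each list is not known. The H3K27Ac lists held between 17433 and 50005 peaks, and replicate 1 at P14 and at P21 had 17433 and 18718 peaks against 50005 and 45833 in replicate 2. Absence of a peak in those replicate 1 lists therefore carries less weight, and counts are also given for replicate 2. The H3K4me3 lists were closer in size, with 18534 to 24124 peaks. As a check of the tissue, 4 of the 5 rod genes placed (Crx, Nr2e3, Nrl, Pde6b and Sag) passed the test below for higher H3K4me3 at P14 and 4 at P21, and none for lower, while 2 and 3 of 6 retinal progenitor genes passed for lower. The 3 retinal pigment epithelium and 4 lens genes placed had no peak in any library. Because retinae were used whole, fewer cells carrying a mark and less of the mark per cell cannot be told apart.

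At P0 nearly all of these genes carried both H3K4me3 and H3K27Ac. Scaled H3K4me3 heights ran from 20.9 to 57.5 in replicate 1 (median 40.3) and from 21.8 to 81.1 in replicate 2 (median 44.2), against medians of 35.9 and 35.9 at the other marked starts. H3K27Ac peaks were found in both P0 libraries at 40 of the 42 starts, against 77.4% of the other marked starts. The exceptions were cyclins. Ccna2, the cyclin of S phase and G2, had no H3K27Ac peak in replicate 1 and the highest scaled height of all 42 genes in replicate 2, 20.3. The Ccna2 start was taken from a gene end, and the missing peak depended on the window. With a window of 2 kb, 41 of the 42 starts, Ccna2 among them, had peaks in both P0 libraries. Its fitted log2 difference between P14 and P0 also moved with the window. Ccnd2, a D-type cyclin of G1, had no H3K27Ac peak at its start in any library of any stage or genotype.

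Promoter letters that cycling cells are known to use were common among these genes. Sequences from 250 bases before to 50 bases after the start were in the RefSeq promoter table (GRCm38.p6) for 33 of the 42 genes and for 10641 other marked starts. An E2F site, searched as TTTCCCGC, TTTGGCGC, TTTCGCGC or TTTGCCGC, occurred in 9 of 33 promoters (27.3%), against 4.16% of the other marked starts and 2.98% of all 17273 coding gene starts in the table. The core CHR letters TTTGAA occurred in 14 of 33 (42.4%), against 10.6% and 16.0%. CCAAT occurred in 25 of 33 (75.8%), against 38.6% and 39.6%. Both strands were searched and overlapping matches of different motifs were each counted. The 9 promoters with E2F letters were mostly those of replication genes, namely Mcm3, Mcm5, Mcm6, Mcm7, Cdc6 and Cdt1, with Cdk1, Cdk2 and E2f2. The 14 with CHR letters were mostly mitotic, among them Plk1, Aurka, Ttk, Bub1b, Cdc20, Cenpa, Cenpf, Ndc80, Kif11, Top2a and Ccnb2.

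The 250 bases before the start are shown for 6 genes that the H3K27Ac results below describe. Cdk1, Ccnb2, Top2a and Cdc6 had no acetylation peak in any library after P0, while Mcm6 and Mcm5 had peaks only in some. Whether these letters bear on acetylation was not tested. Sequences are on the strand of the gene, with the E2F, CHR and CCAAT letters on either strand in capitals. Their GRCm38.p6 positions are chr10:69352913-69353162 (minus strand), chr9:70421555-70421804 (minus), chr11:99024190-99024439 (minus), chr11:98907901-98908150 (plus), chr1:128359706-128359955 (minus) and chr8:75109259-75109508 (plus).
Cdk1: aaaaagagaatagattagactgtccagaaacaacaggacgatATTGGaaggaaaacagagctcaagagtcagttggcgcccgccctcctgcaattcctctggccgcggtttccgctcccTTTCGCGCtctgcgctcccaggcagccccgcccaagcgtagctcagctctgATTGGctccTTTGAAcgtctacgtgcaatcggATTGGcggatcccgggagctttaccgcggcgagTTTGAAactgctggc
Ccnb2: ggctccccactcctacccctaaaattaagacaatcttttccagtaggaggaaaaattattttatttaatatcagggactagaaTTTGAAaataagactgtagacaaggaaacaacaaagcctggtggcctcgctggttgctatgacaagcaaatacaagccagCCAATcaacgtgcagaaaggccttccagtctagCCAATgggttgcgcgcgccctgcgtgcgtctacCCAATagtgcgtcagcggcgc
Top2a: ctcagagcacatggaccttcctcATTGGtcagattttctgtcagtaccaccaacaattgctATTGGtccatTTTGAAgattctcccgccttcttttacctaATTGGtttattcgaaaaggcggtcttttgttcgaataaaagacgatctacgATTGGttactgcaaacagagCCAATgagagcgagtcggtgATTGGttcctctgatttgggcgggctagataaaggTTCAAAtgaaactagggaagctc
Cdc6: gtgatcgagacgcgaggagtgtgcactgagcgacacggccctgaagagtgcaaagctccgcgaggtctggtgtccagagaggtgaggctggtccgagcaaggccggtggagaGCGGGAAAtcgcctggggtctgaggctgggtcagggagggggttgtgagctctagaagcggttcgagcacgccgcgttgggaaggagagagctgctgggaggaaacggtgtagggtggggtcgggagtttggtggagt
Mcm6: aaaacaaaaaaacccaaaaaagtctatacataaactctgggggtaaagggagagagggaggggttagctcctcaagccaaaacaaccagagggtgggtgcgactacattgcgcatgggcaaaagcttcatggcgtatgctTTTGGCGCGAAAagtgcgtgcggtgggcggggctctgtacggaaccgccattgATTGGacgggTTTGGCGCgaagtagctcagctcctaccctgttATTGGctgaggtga
Mcm5: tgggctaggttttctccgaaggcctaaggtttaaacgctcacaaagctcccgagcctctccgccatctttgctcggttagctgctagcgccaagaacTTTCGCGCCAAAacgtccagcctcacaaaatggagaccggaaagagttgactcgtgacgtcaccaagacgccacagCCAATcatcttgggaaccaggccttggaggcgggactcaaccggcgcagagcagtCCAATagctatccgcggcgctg
In these bases Cdk1 held 1 E2F match, 2 CHR matches and 3 CCAAT matches, and Top2a held 6 CCAAT matches and 2 CHR matches. Ccnb2 held 3 CCAAT matches and 1 CHR match, and Cdc6 held 1 E2F match alone. Mcm6 held 3 E2F matches, of which a pair overlap, and Mcm5 held 2 that overlap, and each also held 2 CCAAT matches. Among the promoters in the table, E2F letters occurred at 3 of 7 genes without later H3K27Ac and at 1 of 9 that kept it in all 5 later libraries. CHR letters occurred at 3 of 7 and 7 of 9, and CCAAT at 6 of 7 and 7 of 9. Of the 17 promoters of genes with peaks in only some later libraries, 5 held E2F letters, 4 CHR letters and 12 CCAAT. A match describes the letters only.

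After P0, a part of these starts had no H3K27Ac peak left. Of the 40 genes acetylated in both P0 libraries, 10 (25.0%) had no H3K27Ac peak in any of the 5 later wild-type libraries at P12, P14 and P21, against 0.873% of the other marked starts acetylated at P0 (90 of 10309). These were Cdk1, Ccnb1, Ccnb2, Cdc25c, Aurkb, Bub1, Top2a, Mcm3, Cdc6 and Ccnd1. At the other end, 10 genes (25.0%) kept a peak in all 5 later libraries, against 57.3% of the other marked starts. Peaks in both libraries of a stage were found at 10 of 42 starts at P14 and 11 at P21, against 58.1% and 48.5% of the other marked starts. In replicate 2 alone they were found at 31 and 26 of 42, against 90.6% and 84.3% of the other marked starts. Leaving out the short P14 and P21 lists together gave the same 10 of 40 and 0.873%. With only the strongest 50% of the peaks of each list the counts were 12 of 34 and 1.03%, and with equal numbers of peaks in each list 19 of 40 and 5.49%.

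**Figure D1:**
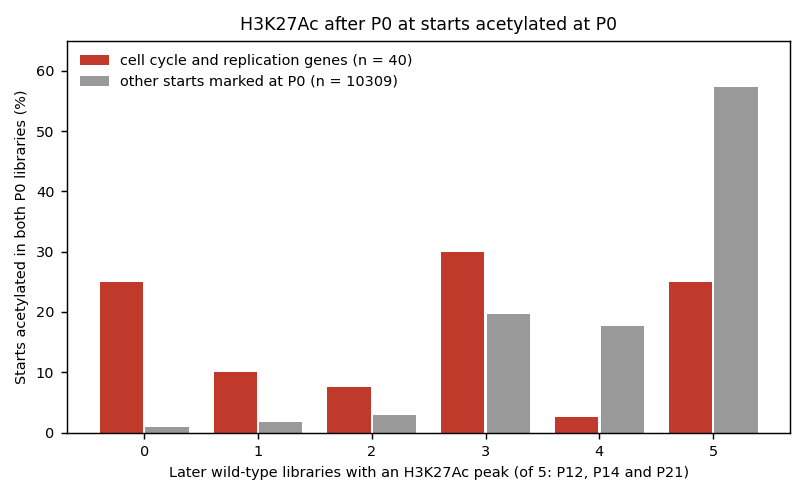
Bars give the share of starts, in percent, by the number of the 5 later wild-type libraries (x axis) with an H3K27Ac peak, for the 40 cell cycle and replication genes acetylated in both P0 libraries (red) and 10309 other starts marked at P0 (grey). The red bar at 0 stands at 25.0% and the grey one at 0.873%, while at 5 they stand at 25.0% and 57.3%.

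The count was split by the strength of the P0 peak. Among starts with a mean P0 fold enrichment of at least 10, as deposited, 6 of 25 of these genes lost every later peak, against 0.186% of 4830 other marked starts. Below 10 the counts were 4 of 15 and 1.48% of 5479. Absence from both P14 libraries was found at 10 of the 40 genes, against 1.2%, and from both P21 libraries at 15, against 3.81%. Without replicate 2, the longer list, these counts were 30 at P14 and 29 at P21. The short replicate 1 lists lacked peaks at many other starts too. They held a peak at 58.1% (P14) and 48.6% (P21) of the other marked starts, and at 10 and 11 of the 42 genes.

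Genes of mitotic entry were among those without later acetylation. Cdk1, the kinase that drives entry into mitosis, had scaled H3K27Ac heights of 9.23 and 13.02 at P0 and no peak in the 4 libraries of P14 and P21. Its P0 peak in replicate 2 spanned chr10:68814677-68815666 in mm9, the build of the peak lists. Ccnb1 and Ccnb2, the mitotic cyclins that activate Cdk1, also had no later peak, after 10.7 and 10.1 for Ccnb1 and 8.79 and 13.6 for Ccnb2 at P0. Cdc25c, the phosphatase that removes the inhibitory phosphates of Cdk1, had 4.47 and 4.74 at P0 and no later peak. So 4 of the 6 genes of this role lost all H3K27Ac peaks. Ccna2 and Chek1, the kinase of the DNA damage checkpoint, did not. Ccna2 had 6.003 at P14 and 6.41 at P21 in replicate 2, and Chek1 had 5.47 and 9.12, after 7.96 and 8.93 at P0.

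The mitotic kinases split. Aurkb, the kinase of the chromosomal passenger complex, had 8.61 and 14.7 at P0 and no later peak, and Bub1, a spindle checkpoint kinase, had 6.90 and 6.37 and none. Aurka, the centrosomal relative of Aurkb, kept peaks in every library, with 16.8 and 18.5 at P0, 6.39 and 11.4 at P14 and 6.08 and 14.9 at P21. Plk1, the polo-like kinase of mitotic entry, had 7.77 and 7.16 at P0, 6.41 and 4.47 at P14 and 4.84 and 6.30 at P21, which were lower in all 4 later libraries than at P0. Ttk, a spindle checkpoint kinase, and Birc5, the survivin subunit of the chromosomal passenger complex, also kept a peak in every library. Bub1b had a peak at P14 in replicate 2 only, at 2.06, after 3.61 and 7.06 at P0. Cdc20, the activator of the anaphase-promoting complex, had 10.4 and 8.99 at P0 and, in replicate 2 alone, 3.45 at P14 and 4.08 at P21.

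Of the 8 chromosome and spindle genes 4 kept H3K27Ac throughout. Kif11 and Kif20a, which encode mitotic kinesins, and Cenpf and Ndc80, which encode kinetochore proteins, had an H3K27Ac peak in all later wild-type libraries. Kif20a had 14.7 and 15.1 at P0 and 9.67 and 15.2 at P21. Ndc80 had 6.77 and 11.3 at P0 and 16.99 and 16.1 at P21, both above its P0 values. Cenpa, the centromeric histone H3 variant, lacked a peak only in P14 replicate 1. Top2a, the type II topoisomerase of mitotic chromosomes, stood apart, with 8.22 and 11.8 at P0 and no later peak. Mki67, which encodes the proliferation antigen Ki-67, had 7.94 and 9.18 at P0 and, in replicate 2 alone, 1.99 at P14 and 3.92 at P21.

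Of the 10 genes of licensing and the fork, 2 had no later H3K27Ac peak and 2 kept one in all 5 later libraries. Mcm2 to Mcm7 encode the subunits of the replicative helicase, and their later peaks differed. Mcm2 kept a peak in every library, with 12.2 and 11.01 at P0, 9.32 and 5.68 at P14 and 12.7 and 3.90 at P21. Mcm3 had 5.42 and 10.8 at P0 and none later. Mcm6 fell in between, with 15.02 and 13.9 at P0 and, in replicate 2 alone, 3.78 at P14 and 5.17 at P21. Mcm7, whose start lies 138 bp from that of Ap4m1 on the opposite strand, kept a peak in every library. Cdc6, which loads the helicase at origins, had 6.39 and 6.30 at P0 and none later, while its partner Cdt1 had 9.16 and 13.2 at P0 and, in replicate 2, 4.43 and 6.35. Pcna, the sliding clamp of the fork, had 6.03 and 6.80 at P0 and, in replicate 2 alone, 2.51 at P14 and 7.99 at P21. Rrm2, the regulated subunit of ribonucleotide reductase, had 7.76 and 12.2 at P0, 1.94 in P14 replicate 2 and no peak at P21.

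Of the G1 to S genes, Ccnd1, the main D-type cyclin of retinal progenitors, had 12.1 and 11.2 at P0 and no later peak. Its start was taken from a gene end. With a window of 2 kb its log2 difference between P14 and P0 moved from -2.21 to -1.68, and 9 genes had no later peak. Ccne1, the cyclin partner of Cdk2, was among the weakest at P0, with 4.07 and 6.46, and had 4.77 and 6.11 in replicate 2 at P14 and P21. E2f1, an activating E2F factor, had 14.4 and 9.76 at P0, 1.94 in P14 replicate 2 and no peak in either P21 library. Cdk2 had 6.38 and 10.9 at P0 and 2.46 in P14 replicate 2 as its only later wild-type peak. No gene of this role kept a peak in all 5 later libraries. Across all roles, 4 of the 42 starts (9.52%) lay within 1 kb of the start of another coding gene, against 16.6% of the other marked starts, and a peak there cannot be given to one gene or the other. Beside Mcm7 these were Mcm4 with Prkdc at 44 bp, Kif20a with Brd8 at 239 bp and Aurka with Cstf1 at 433 bp, and all but Mcm4 kept H3K27Ac in all 5 later libraries.

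**Figure D2:**
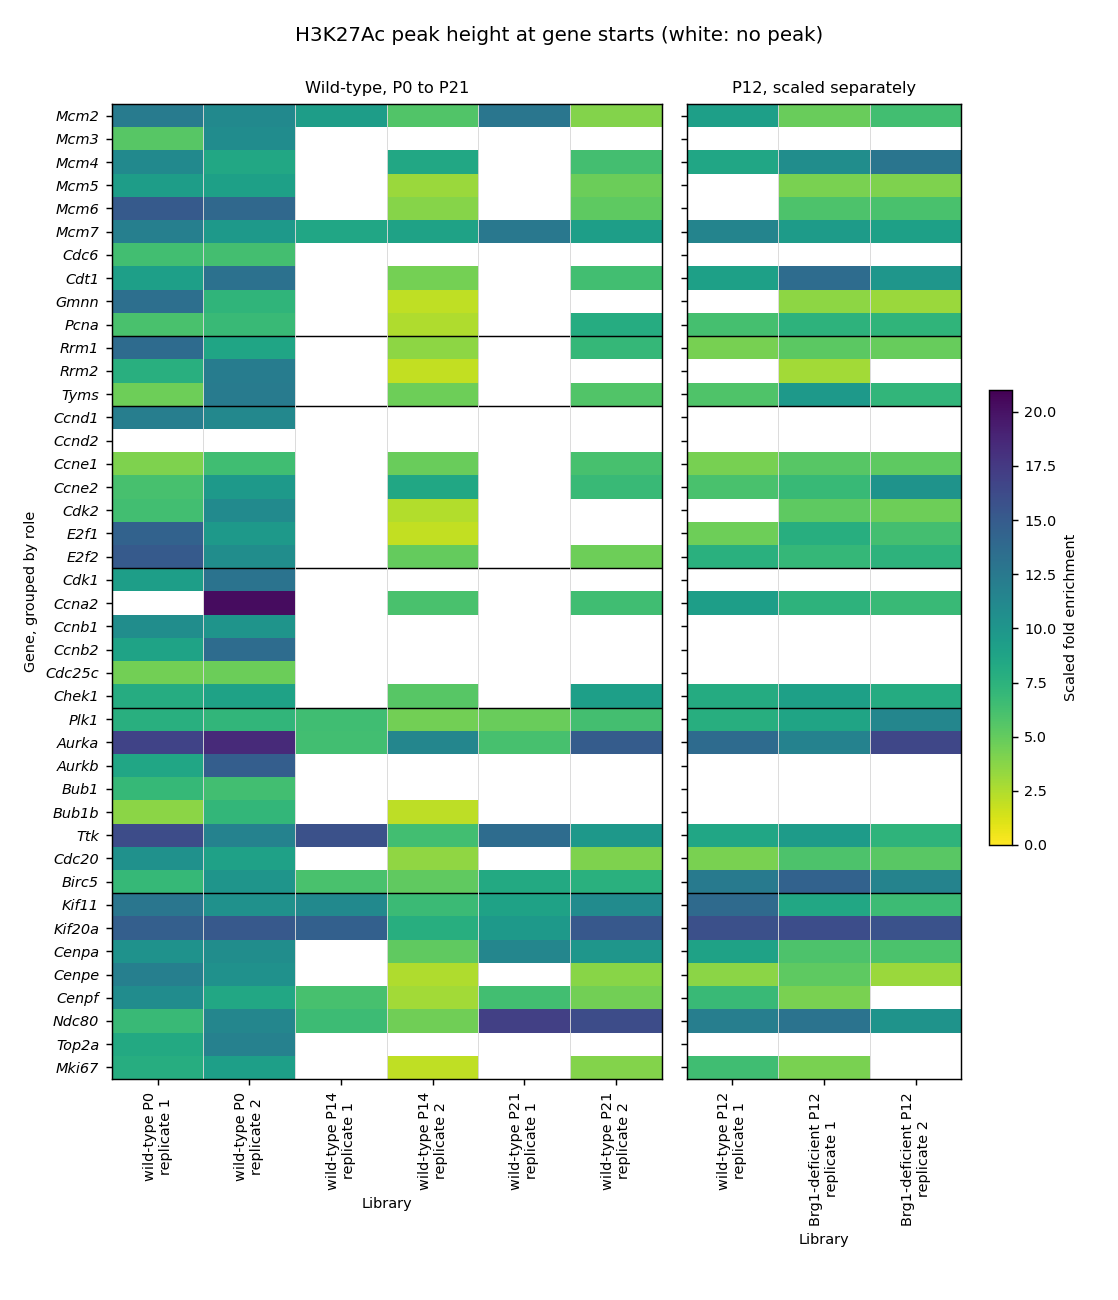
Each row is a gene and each column an H3K27Ac library, with black lines between the 6 role groups in the order of the text; colour gives the scaled fold enrichment of the highest peak within 1 kb of the start and white means no peak. The 10 rows that are coloured only at P0 are the genes without any later peak, the replicate 1 columns at P14 and P21 hold 10 and 11 peaks, and the P12 libraries were scaled among themselves.

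Tested start by start, no H3K27Ac difference passed. The limma model on log2(height + pseudocount) of the 6 wild-type libraries called 0 of 12165 starts at an adjusted p of 0.05 in each of the 3 stage comparisons, so 0 of the 41 genes tested were called. At an unadjusted p under 0.05, 23 of the 41 were lower at P14 than at P0, against 4.5% of all starts tested, and 20 at P21, against 6.81%. None was higher, against 2.65% and 3.45% of all starts. These counts include the 10 genes without a later peak, which entered the test only through their P0 peaks and so had to come out lower. Without either P0 library they were not tested, and 3 of 31 genes were lower at P14 without replicate 1 and 3 of 31 without replicate 2, against 0.748% and 0.521% of all starts. At P21 the counts were then 5 and 4 of 31, against 199 of 12039 and 142 of 11705 starts. Where a peak in every library was required, 10 genes were tested and 2 were lower at P14 and 1 at P21, against 4.85% and 6.05%. Without P14 replicate 1 the P14 count was 13 of 41, against 1.46%. Between P21 and P14, 2 of the 41 were higher at an unadjusted p under 0.05, against 0.617% of all starts, while 0 were lower, against 0.469%. Fitted values of genes without a later peak depend on the pseudocount. The stage comparisons share their P0 libraries.

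H3K4me3 peaks remained at starts where acetylation was lost, and they were narrower after P0 at every gene. All 42 starts kept an H3K4me3 peak in all 8 libraries, wild-type and Brg1-deficient, against 96.2% of the other marked starts in both P14 libraries and 94.4% in both P21 libraries. With the strongest 50% of the peaks of each list they were kept in both P14 libraries at 27 of 42 starts and in the Brg1-deficient library at 26, against 70.6% and 72.5%, and in both P21 libraries at 29, against 69.2%. At P0 the peaks of these genes were wide, with a median of 2143 bp in replicate 1 and 2482 bp in replicate 2, against 1665 and 1830 bp at the other marked starts. At P14 the medians were 1237 and 1271 bp against 1518 and 1646 bp, and at P21 1450 and 1223 bp against 1927 and 1575 bp. For 42 of 42 genes both P14 peaks were narrower than both P0 peaks, against 52.8% of the other marked starts, and for 42 of 42 both P21 peaks were, against 24.7%. None was wider in both, against 9.9% and 17%. The median ratio of the mean widths was 0.536 at P14 and 0.566 at P21, against 0.900 and 0.991. The other marked starts were not matched to these genes on P0 width, which was smaller in their medians.

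**Figure D3:**
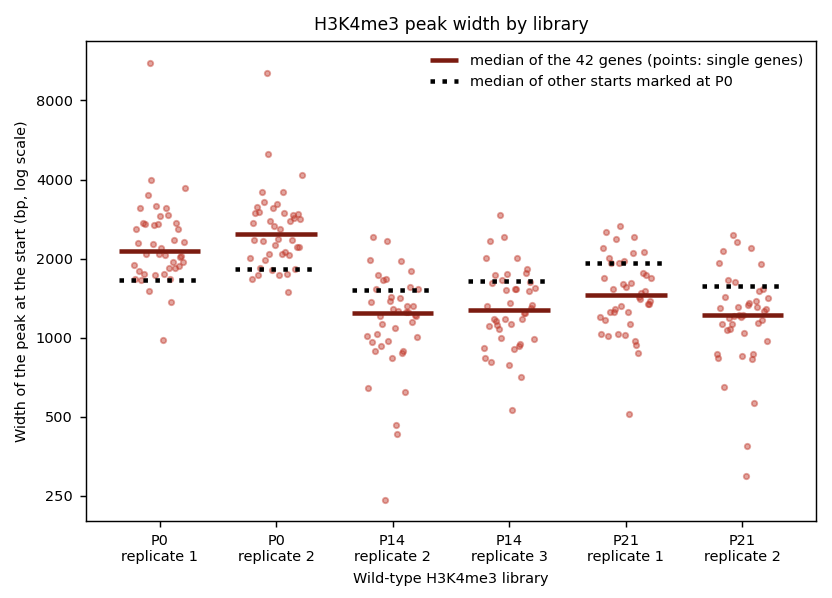
Points give, for each of the 42 genes, the width in bp (log scale) of the H3K4me3 peak at the start in each wild-type library; solid bars are their medians and dotted bars the medians of the other starts marked at P0. The solid bar lies above the dotted one in both P0 libraries and below it in the 4 libraries of P14 and P21.

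Ccnd1 carried the broadest domain. Its peak measured 11147 and 10213 bp at P0, 1663 and 2939 bp at P14 and 2380 and 2461 bp at P21. In P0 replicate 2 it covered chr7:152119472-152129684 in mm9, and at P14 replicate 2 it covered chr7:152124628-152126290. Ccnd2 had 3980 and 5006 bp at P0, 242 and 994 bp at P14 and 1037 and 1212 bp at P21. Mki67 had 3711 and 4164 bp at P0, 1531 and 1548 bp at P14 and 1687 and 1411 bp at P21, and Rrm2 had 3483 and 3282 bp at P0, 930 and 1113 bp at P14 and 1258 and 1079 bp at P21. Cdk1 had 2078 and 2246 bp at P0, 839 and 787 bp at P14 and 1027 and 853 bp at P21. Top2a had 2322 and 2840 bp at P0, 1007 and 988 bp at P14 and 1384 and 972 bp at P21. Plk1, which kept its acetylation, had 3107 and 3583 bp at P0, 1420 and 1529 bp at P14 and 2096 and 1357 bp at P21. In these genes no P14 or P21 width overlapped the P0 widths. The smallest relative changes in mean width, at P14 and at P21, were at Ccne2, with 2697 and 2790 bp at P0, 2334 and 2414 bp at P14 and 2664 and 2309 bp at P21, and at Ccne1, with 2281 and 2083 bp at P0, 1675 and 1661 bp at P14 and 1925 and 1626 bp at P21.

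Lower H3K4me3 height was called at few of these genes. In the same limma model, 7 of the 42 were called lower at P21 than at P0 and none higher, against 5.93% and 0.726% of the 13497 starts tested, and 1 of 42 was called lower and none higher at P14, against 1.48% and 0.482%. At an unadjusted p under 0.05, 11 of 42 were lower and 0 higher at P14, against 10.8% and 4.29%, and 13 and 0 at P21, against 16.5% and 3.16%. The median log2 difference of the 42 was -0.40 at P14 and -0.28 at P21, against -0.04 and -0.08 over all starts. The 7 called at P21 were Cdk1, Aurkb, Cdc25c, Ccnd2, Bub1, Ccna2 and Ccnb2, so 4 of the 6 genes that act from S phase to mitosis were among them. Of these, Cdk1, Aurkb, Cdc25c, Bub1 and Ccnb2 also belong to the 10 that had no H3K27Ac peak after P0. The calls at P21 need both P21 libraries: 0 were left without P21 replicate 1, 1 without P21 replicate 2, 3 without P0 replicate 2, and 0 when heights were not scaled.

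Cdk1 had scaled H3K4me3 heights of 53.3 and 53.6 at P0, 19.01 and 24.3 at P14 and 16.03 and 18.2 at P21, a difference of -1.32 ± 0.26 on the log2 scale (SE) at P21 with a limma adjusted p of 0.0121. Aurkb had 52.8 and 51.7 at P0, 28.7 and 19.5 at P14 and 15.3 and 18.1 at P21, a difference of -1.32 ± 0.27 on the log2 scale (SE) at P21 with a limma adjusted p of 0.0137. Cdc25c had 29.1 and 41.3 at P0, 14.7 and 11.2 at P14 and 8.34 and 11.3 at P21, a difference of -1.30 ± 0.27 on the log2 scale (SE) at P21 with a limma adjusted p of 0.016. In these 3 genes the P14 and P21 libraries were below both P0 libraries. Among all 42 genes this held for 19 at P14 and for 19 at P21, against 26.2% and 32% of the other marked starts. Bub1 had 45.4 and 66.7 at P0, 16.3 and 21.4 at P14 and 12.9 and 27.8 at P21, a difference of -1.23 ± 0.32 on the log2 scale (SE) at P21 with a limma adjusted p of 0.0375. For Ccna2 the heights were 57.5 and 73.2 at P0, 40.3 and 54.5 at P14 and 27.1 and 23.4 at P21, a difference of -1.15 ± 0.27 on the log2 scale (SE) at P21 with a limma adjusted p of 0.0265. For Ccnb2 they were 27.6 and 25.6 at P0, 22.9 and 12.1 at P14 and 8.02 and 10.1 at P21, a difference of -1.06 ± 0.28 on the log2 scale (SE) at P21 with a limma adjusted p of 0.0442. The later libraries did not overlap the P0 libraries in these genes either. Ccnd2 had 34.3 and 21.8 at P0, 4.95 and 12.5 at P14 and 5.78 and 8.997 at P21, a difference of -1.25 ± 0.31 on the log2 scale (SE) at P21 with a limma adjusted p of 0.0325. With the peak summit, and not any part of the peak, required within 1 kb, the Ccnd2 difference turned to 1.02 and was not called. Cenpf, the only gene called at P14, had 42.4 and 56.8 at P0, 19.1 and 14.3 at P14 and 18.6 and 29.2 at P21, a difference of -1.24 ± 0.28 on the log2 scale (SE) at P14 with a limma adjusted p of 0.0452. The Cenpf call was not made with a pseudocount of 1, without scaling, with the summit rule, with only P0 and P14 in the fit, or without P0 replicate 2, either P14 library or P21 replicate 1. Between P14 and P21 none of the 42 was called by limma, against 0.0296% of all starts called higher and 0 lower, and 1 was lower and 1 higher at an unadjusted p under 0.05, against 5.02% and 1.73% of all starts.

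**Figure D4:**
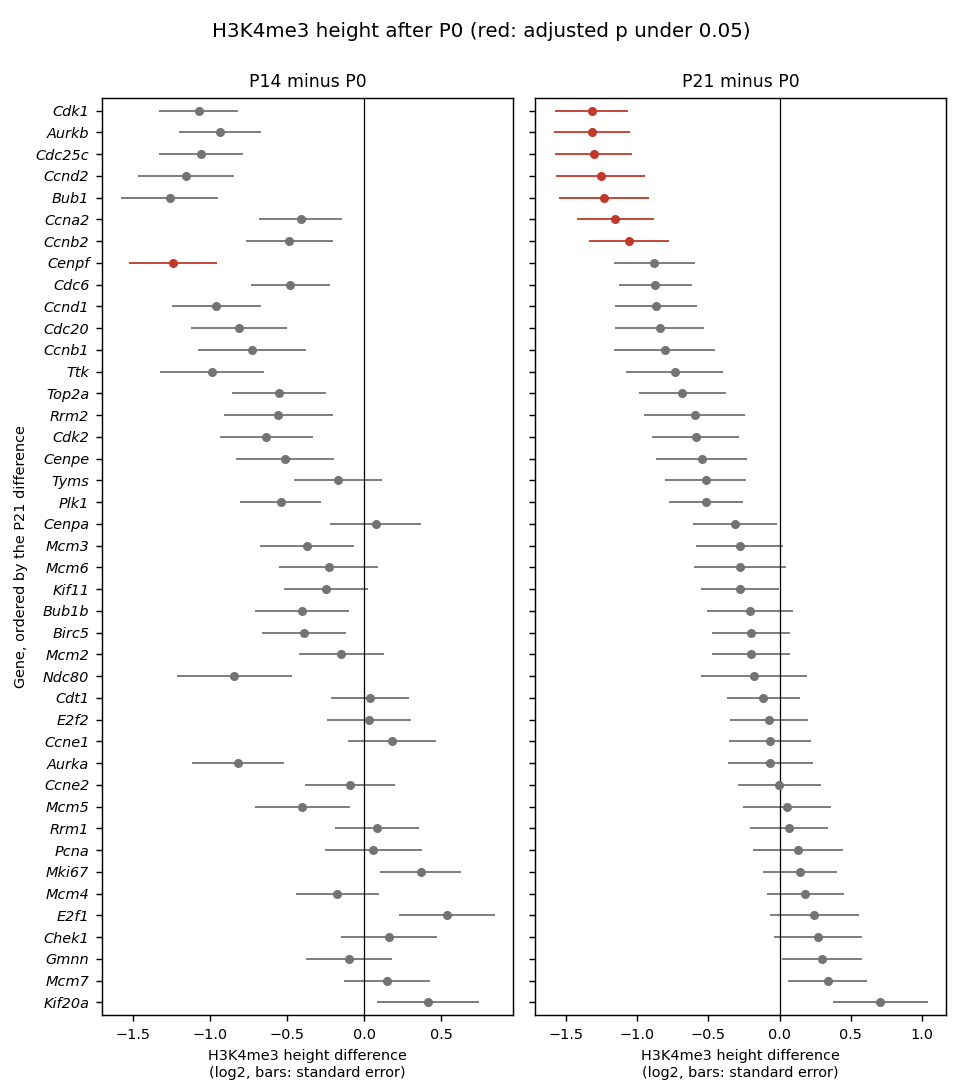
For each of the 42 genes the point gives the fitted log2 difference in H3K4me3 height of P14 (left) or P21 (right) minus P0 and the bar its standard error, with calls at an adjusted p under 0.05 in red. The 7 red genes at P21, from Cdk1 to Ccnb2, lie between -1.32 and -1.06, and Cenpf is the 1 red gene at P14, at -1.24.

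Most replication genes showed no called change in H3K4me3 height. None of the 10 genes of licensing and the fork was called, and their median log2 difference was -0.16 at P14 and -0.03 at P21. Mcm2 had scaled heights of 45.6 and 34.8 at P0, 36.03 and 34.5 at P14 and 27.6 and 41.2 at P21. Mcm6 had 34.4 and 67.3 at P0, 32.5 and 49.6 at P14 and 34.4 and 43.3 at P21. In both genes the P14 and P21 values overlapped or touched those of P0. Pcna had 44.9 and 22.99 at P0, 42.5 and 27.2 at P14 and 35.1 and 37.3 at P21, with the later values inside the range of its P0 libraries. Of the nucleotide genes, Rrm2 had 33.8 and 70.9 at P0, 34.8 and 28.00 at P14 and 42.6 and 20.9 at P21, where the P0 libraries stood far apart. Among G1 to S genes, Ccnd1 had 41.6 and 55.03 at P0, 17.7 and 24.96 at P14 and 17.9 and 29.1 at P21, all later values below P0, with an adjusted p of 0.0997 at P21. Ccne1 had 47.6 and 35.3 at P0, 47.8 and 47.1 at P14 and 30.3 and 49.5 at P21. E2f1 had 27.2 and 28.4 at P0, 33.4 and 56.4 at P14 and 25.6 and 45.2 at P21 and was not called in either direction. Among mitotic genes, Ccnb1 had 35.8 and 57.5 at P0, 14.6 and 39.1 at P14 and 24.2 and 21.7 at P21, with overlap at P14 and an adjusted p of 0.22 at P21. Plk1 had 40.8 and 52.5 at P0, 30.8 and 28.3 at P14 and 28.2 and 32.5 at P21, and Top2a 44.1 and 46.9 at P0, 39.2 and 20.6 at P14 and 20.8 and 31.3 at P21. Both lay lower in every later library than at P0, with adjusted p of 0.313 and 0.234 at P21. Mki67 had 32.1 and 28.7 at P0, 36.8 and 46.2 at P14 and 30.9 and 37.95 at P21, with both P14 values above P0 and P21 overlapping it.

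H3K27me3 was found at the D-type cyclins and hardly elsewhere among these genes. Islands of H3K27me3 covered the start in both libraries at 2 of 42 genes at P0, P14 and P21 alike (4.76%), against 21.4%, 20.3% and 22.4% of the other marked starts. The 2 genes were Ccnd1 and Ccnd2 at each stage. With the other antibody at P12, 2 of 42 genes, also Ccnd1 and Ccnd2, had an island in both wild-type libraries, against 24.3%. Both D-type cyclins thus carried an H3K4me3 peak and an H3K27me3 island over the start in the same tissue. Marks on the same or on different cells cannot be told apart in whole retina. Cdc20 and Mki67 had an island in P21 replicate 2 only, and Mki67 in P12 replicate 2 only. The other 9 genes without later acetylation, Cdk1 among them, had no island over the start in the wild-type libraries of P0, P14 and P21, nor in those of P12 with the other antibody.

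Brg1 was present at P0 at most of these starts. A Brg1-FLAG peak lay within 1 kb of 34 of the 42 starts (81.0%), against 82.6% of the other marked starts, with a median fold enrichment of 5.83 against 5.91. Ccnd1 had the highest at 16.3, followed by Cdt1 at 10.5 and E2f2 at 10.2, and all 7 G1 to S genes had a peak. The 8 genes without one were Mcm4, Cdc6, Tyms, Cdc25c, Chek1, Bub1, Bub1b and Cenpe. Among the 10 genes without H3K27Ac after P0, 7 had a Brg1 peak, and among the 10 that kept it in all later libraries 10 had one. At the other marked starts these shares were 71.1% of 90 and 94.6% of 5908. There was 1 Brg1 library, so these values have no replicate error.

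At P12, 4 of 42 genes had an H3K27Ac peak in both Brg1-deficient libraries and none in wild-type, against 3.47% of the other marked starts, and 0 had the opposite pattern, against 0.608%. The 10 genes without a later wild-type peak had none in either genotype. The wild-type library had a peak at 25 of 42 starts, against 84% of the other marked starts, and the Brg1-deficient libraries at 30 and 27, both at 27, against 85.3%. Only starts without a wild-type peak could have peaks in the Brg1-deficient libraries alone, and these genes lacked that peak more often. The 4 of 42 and the 3.47% are therefore not shares of like starts. With 1 wild-type library there is no test. In both Brg1-deficient libraries 2 genes were at least 2-fold higher on the log2(height + pseudocount) scale, against 1.77% of the other marked starts with a P12 peak, and none was at least 2-fold lower, against 0.505%. These were Mcm6, with no wild-type peak and scaled heights of 5.82 and 6.04 in the Brg1-deficient libraries, and Cdk2, with no wild-type peak and 5.21 and 4.66. Mcm5 and Gmnn, the inhibitor of Cdt1, also had peaks only in the Brg1-deficient libraries, at 4.21 and 4.04 for Mcm5 and 3.58 and 3.15 for Gmnn. E2f1 had 4.59 in wild-type and 7.87 and 6.24 in Brg1-deficient retinae. In a wild-type library of another age, P14 replicate 2, Mcm6 and Mcm5 were at least 2-fold above the P12 wild-type library. That made 2 of 31 genes, against 4.35% of the other marked starts. This comparison used 1 library, while the 2-fold count above required both Brg1-deficient libraries, where Mcm5 passed in replicate 1 only. Cenpf and Mki67, with 6.73 and 6.42 in wild-type, had a peak in only 1 of the Brg1-deficient libraries, at 4.19 and 4.19.

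**Figure D5:**
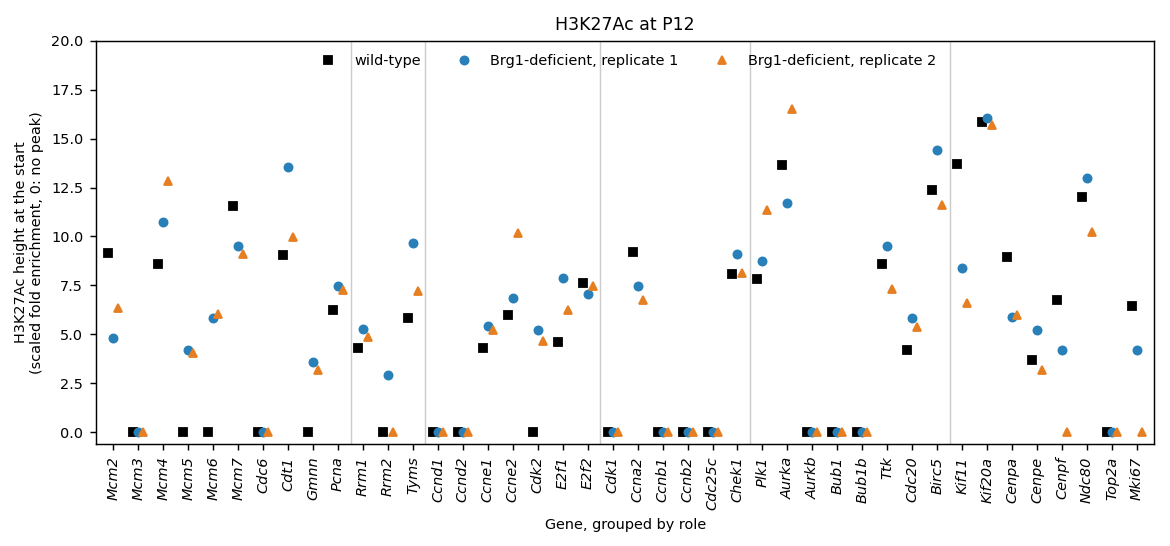
The scaled H3K27Ac height at each start (y axis, 0 means no peak) is plotted for the wild-type P12 library (squares) and the 2 Brg1-deficient libraries (circles and triangles), by gene and role. Mcm5, Mcm6, Gmnn and Cdk2 are at 0 in wild-type and above 0 in both Brg1-deficient libraries, and the 10 genes without a wild-type peak after P0 are at 0 in all 3.

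For H3K4me3 at P12, 1 library of each genotype was available. All 42 starts had a peak in both, against 98.7% and 96.9% of the other marked starts. On the log2(height + pseudocount) scale, with a pseudocount of 8.04, 0 of 42 genes differed at least 2-fold, against 0.821% higher and 0.905% lower. The largest differences were at Ccnb1, with a scaled height of 43.2 in wild-type and 18.03 in Brg1-deficient retinae, and at Mcm3, with 28.7 and 55.9. Without the pseudocount, the Ccnb1 heights were more than 2-fold apart. Cdk1 had 25.4 and 18.05. The median width was 1343 bp in wild-type and 1288 bp in Brg1-deficient retinae. In the 1 Brg1-deficient H3K27me3 library an island covered 5 of 42 starts, against 27.7% of the other marked starts. These were Ccnd1, Ccnd2, Mki67, Rrm2 and Bub1, and the last 2 had no island in either wild-type P12 library.

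Other genes of replication and division were counted in the same way. Of 48 such genes 46 were marked at P0, and all 46 were acetylated in both P0 libraries. H3K27Ac was absent from every later wild-type library at 9 of them, namely Aspm, E2f8, Kifc1, Mcm10, Melk, Mybl2, Pbk, Tpx2 and Uhrf1, and present in every one at 11, against 0.873% and 57.3% of the other marked starts. Their H3K4me3 peak was narrower in both P14 libraries at 44 of 46 and in both P21 libraries at 37 of 46, against 52.8% and 24.7%. For H3K4me3 height 1 of 46 was called lower at P14 and 2 at P21, against 1.48% and 5.93% of all starts tested, and none higher. Of 7 cell cycle inhibitors 5 were marked at P0 and 3 acetylated, none of which lost the mark in all later libraries, and 4 of the 7 had an H3K27me3 island over the start in both P0 libraries. Among the 6 retinal progenitor genes, all acetylated at P0, none lost every later peak, and 6 had a narrower H3K4me3 peak in both P14 libraries and 4 in both P21 libraries.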

How the data were processed

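The authors deposited a peak list for each of 18 Brg1, H3K27Ac and H3K4me3 libraries, with a fold enrichment (a ratio over background), a −log10 p-value, a −log10 q-value and a summit distance per peak, and islands with a score for each of 9 H3K27me3 libraries. Per the labels' processing notes, the submitters used BWA 0.5.9-r26, Picard 1.65, MACS2 2.0.9, SICER 1.1 and bedtools 2.17.0 on mm9. Peaks were called per library; treatment of input libraries is not given in the sources used here. The score of the islands was not used.

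No mm9 annotation was used. Starts of GRCm38.p6 RefSeq genes were shifted by local offsets per stretch of chromosome, chosen to bring the most gene starts to P0 H3K4me3 peaks. For 33 of the 42 genes the start came from the promoter table, and for 9 from the gene end with the peak. A start took the highest peak with any part within 1 kb. Positions of starts, and hence the choice of gene ends, rest on the same P0 H3K4me3 lists.

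Heights were scaled on the median over starts with a peak in every library compared (5920 for H3K27Ac, 12573 for H3K4me3). Starts with a peak in at least 2 of the 6 wild-type libraries were tested with limma 3.58.1 (R 4.3.3) on log2(height + pseudocount), the pseudocount being the 5th percentile of heights (3.19 and 7.26), with Benjamini-Hochberg adjustment over all starts. The fit was tried on simulated data for starts with a peak in every library. That trial does not cover starts without a peak in some libraries. The P12 libraries were compared without a test, with pseudocounts of 4.13 and 8.04. Tables were made with Python 3.11.15 and pandas 2.3.3. Differences on this scale understate changes at low starts.

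Named genes are all 42 by role, with values for fixed examples, for genes called, for those that gained or lost a peak at a stage, and for those past 2-fold at P12. The genes, lists and tests were chosen with earlier results of these data known, and the widths, the counts of lost peaks the counts of heights that do not overlap, the peaks found in 1 genotype at P12 and the P14 yardstick were chosen after seeing the data. Alternatives were another pseudocount, no scaling, other filters and windows, stronger or equal numbers of peaks, the compared stages alone, a replicate block and leaving out each library.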

Additional observations from a re-analysis of the deposited data

How the results depend on the processing

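The 10 genes without H3K27Ac after P0 were 9 with a window of 2 kb, 12 with the strongest 50% of peaks, and 10 to 14 without 1 library. With equal numbers of peaks the count was 19, and 20 for absence at P14. Leaving out 1 library gave 10 to 30 absences at P14 and 15 to 29 at P21. Genes with a peak in both P14 libraries numbered 10, and 31 with either replicate or 10 to 31 with 1 replicate. At P21 they numbered 11, and 26 with either replicate, 11 to 26 with 1 replicate and 7 with the strongest 50% of peaks. That last setting left H3K4me3 peaks at 27 genes at P14 and 26 in Brg1-deficient retinae.

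For H3K4me3 height at P14, 1 gene was called, against 0 with a pseudocount of 1, without scaling, with the summit within 1 kb or with only the stages compared, 5 with a peak in every library and 7 with the strongest 50% of peaks. Leaving out 1 library gave 0 to 3. At P21, 7 were called, against 0 without scaling, 3 with the summit within 1 kb, 3 with the strongest 50% of peaks and 0 to 7 without 1 library. The count was 0 without P21 replicate 1 and 1 without P21 replicate 2. The cause was not tested. With the summit rule the Ccnd2 difference at P21 reversed to 1.02. For the other H3K27Ac and H3K4me3 comparisons no setting changed the count of called genes from 0. Without scaling, the median over all starts moved from -0.16 to -0.03 (H3K27Ac, P14 against P0), from -0.25 to -0.50 (P21 against P0), and from -0.04 to -0.17 (H3K4me3, P14 against P0).

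The replicate numbers do not come from stated shared animals or days. With the replicate block, 12 genes were called at P21 for H3K4me3, and 0 in each H3K27Ac comparison. For H3K4me3 the share of all starts called is not given for the settings in this section. These counts therefore do not show whether a rise or fall is particular to these genes. Replicate deviations correlated across starts with r = 0.15, 0.05 and 0.47 between the H3K27Ac stages and 0.12 between P0 and P21 for H3K4me3. H3K27me3 islands at P21 covered 2 starts, 4 in either replicate and 2 to 4 with 1 replicate. At P12, 2 genes were past 2-fold for H3K27Ac, 4 with a pseudocount of 1 and 3 to 4 without a Brg1-deficient replicate. For H3K4me3 the 0 became 1 with a pseudocount of 1, 3 without scaling and 1 with the summit rule. Depth per library is unknown, and weak peaks are missed in short lists.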
